A study of Mus musculus with 12 samples.

Results

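The genes described here are the mouse CC and CXC chemokines, their receptors and the atypical receptors, without the neutrophil-attracting ligands (Cxcl1, Cxcl2, Cxcl3, Cxcl5 and Cxcl15) and their receptors Cxcr1 and Cxcr2. They were chosen by symbol, as the genes named Ccl, Ccr, Cxcl, Cxcr or Ackr with a number in the array annotation. There were 45 such genes among 19937 genes with a probe set of their own, 27 ligands and 18 receptors. Where a gene had several probe sets, the one with the highest mean was taken. Another 6 symbols, Ccl27a, Ccl27b, Ccl21a, Ccl21b, Ccl21c and Ccl21d, lay only on probe sets shared by several genes and were not analysed here.

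Chemokines are small secreted proteins that draw leukocytes along a gradient, and their receptors are membrane proteins coupled to G proteins on the cells that move. The CC and CXC families are named for the spacing of conserved cysteines. Atypical receptors bind chemokines without the usual signal, and some clear them from the tissue. In lung tumours, CC ligands of macrophages, fibroblasts and tumour cells recruit monocytes, while interferon-induced CXC ligands attract T cells and natural killer cells.

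Gene expression was measured on 12 Affymetrix arrays of Lewis lung carcinoma, a mouse lung tumour line, cut from the lungs of C57BL/6 females. The 4 groups of 3 arrays each were p65-deficient hosts exposed to smoke, p65-deficient hosts exposed to air, wild type hosts exposed to smoke and wild type hosts exposed to air. The p65 protein, also called RelA, belongs to the NF-kB transcription factors, which switch on many chemokine genes. The series title places the interest in RelA of myeloid cells, but the allele, the driver of the deletion, the hosts' age and the length of exposure are not given in the sources used here, nor whether the 3 arrays of a group came from different animals. The p-values below therefore measure the spread between arrays, which may be technical.

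Values are log2 expression as deposited, so a difference of 1 is a 2-fold difference. A gene was called when the adjusted p of limma's moderated test, corrected over all 19937 genes, was at most 0.05. Array medians ran from 7.26 to 7.51, and arrays of one group correlated at 0.990 to 0.998 across genes. The arrays labelled p65-deficient showed no loss of the transcript of Rela, which encodes p65. It was 0.23 ± 0.07 higher than in wild type under smoke (adjusted p = 0.00873, n = 3 each) and 0.20 ± 0.07 higher in air (adjusted p = 0.0285), errors here and below being SE of the difference. Which part of Rela its probes cover relative to the deletion was not examined, so this level does not check the labels, and "p65-deficient" below stands for the libraries carrying that label. Genes of alveolar epithelium were bright on every array, with a mean log2 level over 12 markers of 11.6 to 11.74 in p65-deficient smoke, 11.67 to 11.72 in p65-deficient air, 8.59 to 8.75 in wild type smoke and 10.71 to 10.91 in wild type air. In such bulk samples, fewer cells of a type and less RNA per cell cannot be told apart.

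**Figure D1:**
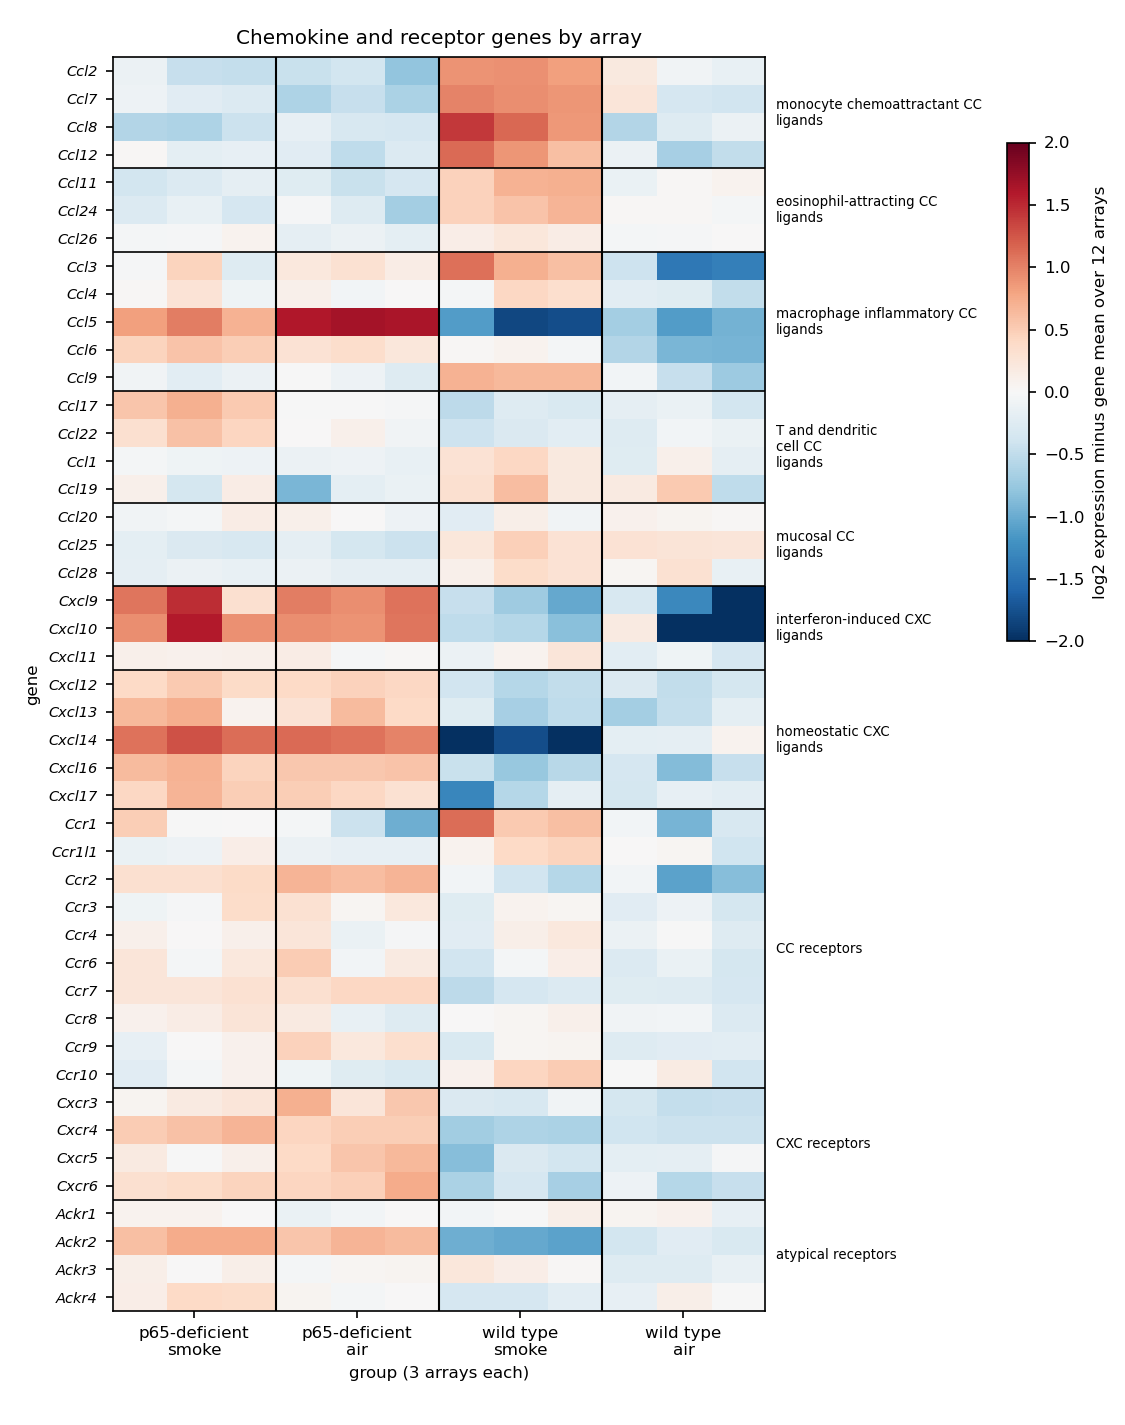
Log2 expression of the 45 genes (rows, grouped by role) on the 12 arrays (columns, in 4 groups of 3), each gene as its difference from its own mean over the arrays, with red higher and blue lower. The ligands Ccl2, Ccl7, Ccl8 and Ccl12 are red in the 3 wild type smoke arrays, and Cxcl9, Cxcl10, Ccl5 and Cxcl14 are red in all 6 p65-deficient arrays.

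Of the 45 genes, 35 reached a log2 level of 6 on at least 3 arrays. The 10 that did not were Ackr1, Ccl26, Ccl28, Ccr1l1, Ccr3, Ccr4, Ccr8, Ccr9, Cxcl11 and Cxcr5, and their values lie near the dim end of the array. The heat map of the genes by array shows the patterns that follow: a block of CC ligands high in wild type smoke, a block of CXC ligands and receptors high in both p65-deficient groups, and Cxcl14 and Ackr2 low in wild type smoke.

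In wild type hosts, 12 of the 19 CC ligands rose with smoke and 1, Ccl5, fell. Of the 45 genes, 23 were called, against 29.0% of all genes. Between the smoke and the air arrays 17 rose and 6 fell, against 15.0% of all genes called higher and 14.0% called lower. The groups did not overlap for 22 of the 45, against 36.9% of all genes, and the median difference was 0.19 over the 45 and 0.08 over all genes. All 4 monocyte chemoattractant ligands (Ccl2, Ccl7, Ccl8 and Ccl12), all 3 eosinophil-attracting ligands and 4 of 5 macrophage inflammatory ligands rose. The rise of the dim Ccl26 among them did not hold under every alternative. Of the 4 CC ligands of T cells and dendritic cells, Ccl1 alone rose, and the 3 mucosal CC ligands missed the threshold. Of the 5 CXC ligands grouped here as homeostatic (Cxcl12, Cxcl13, Cxcl14, Cxcl16 and Cxcl17), 1, Cxcl14, fell.

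Ccl2, Ccl7 and Ccl12 are ligands of Ccr2, the receptor that brings monocytes out of the blood. Ccl2 had log2 levels of 10.15, 10.16 and 10.06 in wild type smoke, against 9.44, 9.18 and 9.10 in wild type air. The groups did not overlap, and the rise was 0.88 ± 0.13, or 1.85-fold (adjusted p = 0.00015). Ccl7 had 9.65, 9.58 and 9.54 in wild type smoke, against 8.89, 8.32 and 8.28 in wild type air, a rise of 1.09 ± 0.13 (adjusted p = 2.87e-05). Its first air array was the highest of the 3 and still lay below every smoke array. Ccl12 had 8.97, 8.72 and 8.44 in wild type smoke, against 7.72, 7.18 and 7.35 in wild type air, a rise of 1.30 ± 0.15 (adjusted p = 1.97e-05). Ccl8, which acts on Ccr8 in mice, had 7.69, 7.43 and 7.15 in wild type smoke, against 5.70, 6.02 and 6.16 in wild type air. It was dim in air and clearly measured under smoke, 1.46 ± 0.13 or 2.76-fold higher (adjusted p = 2.51e-06).

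These ligands lie side by side. On chromosome 11 of the RefSeq annotation the order of protein-coding genes is Ccl2, Ccl7, Ccl11, Ccl12, Ccl8 and Ccl1, and all 6 rose with smoke in wild type hosts. The promoters of Ccl8 and Ccl12, neighbours in that row and the pair with the largest rises in it, are shown from RefSeq (GRCm38.p6), 250 bases ending just before the gene start. They cover chr11:82114935-82115184 and chr11:82101595-82101844, both on the plus strand and read 5′ to 3′. Capitals would mark 3 motifs searched on both strands: the kappa B motif that NF-kB binds (GGG, any 5 bases, then CC), and the motifs of interferon signalling, GAS (TTC, any 3 bases, then GAA) and ISRE (GAAA, any 2 bases, then GAAA). Neither window holds any of them, so all letters are in lower case.
Ccl8: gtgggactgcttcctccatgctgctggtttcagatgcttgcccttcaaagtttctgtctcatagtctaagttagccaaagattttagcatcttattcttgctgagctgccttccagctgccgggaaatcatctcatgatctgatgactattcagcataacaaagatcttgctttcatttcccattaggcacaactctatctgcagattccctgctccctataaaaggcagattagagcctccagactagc
Ccl12: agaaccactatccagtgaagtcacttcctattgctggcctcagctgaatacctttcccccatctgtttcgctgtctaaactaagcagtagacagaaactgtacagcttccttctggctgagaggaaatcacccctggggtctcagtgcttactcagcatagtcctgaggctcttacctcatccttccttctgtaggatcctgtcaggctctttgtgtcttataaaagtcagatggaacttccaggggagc

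Ccl11 (eotaxin), which attracts eosinophils through Ccr3, had 8.16, 8.39 and 8.41 in wild type smoke, against 7.56, 7.72 and 7.77 in wild type air. The rise was 0.64 ± 0.09 (adjusted p = 0.000122). Ccl24, another ligand of Ccr3, rose by 0.57 ± 0.13 (adjusted p = 0.00509) and Ccl1, a ligand of Ccr8, by 0.40 ± 0.09 (adjusted p = 0.0043). Both had groups that did not overlap. The small rise of the dim Ccl26, 0.19 ± 0.06 (adjusted p = 0.0303), was lost under 8 alternatives (adjusted p = 0.0512 to 0.423). They were leaving out any wild type air array or wild type smoke array 2 or 3 (0.0512 to 0.0998), the intensity trend, the fit of 6 arrays and quantile normalization (0.0805 to 0.423).

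The largest rise of the 45 was that of Ccl3, macrophage inflammatory protein 1 alpha, which acts on Ccr1. Ccl3 had 9.56, 9.16 and 9.05 in wild type smoke, against 8.04, 7.03 and 7.09 in wild type air. The smoke arrays were all above the air arrays, by 1.87 ± 0.24 or 3.66-fold (adjusted p = 5.59e-05). Ccl9, also a ligand of Ccr1, had 9.51, 9.47 and 9.47 in wild type smoke, against 8.75, 8.35 and 8.08 in wild type air, a rise of 1.09 ± 0.13 (adjusted p = 2.74e-05). Ccl6, another ligand of Ccr1 and among the brightest of the set, had 11.26, 11.31 and 11.19 in wild type smoke, against 10.65, 10.31 and 10.30 in wild type air, a rise of 0.83 ± 0.09 (adjusted p = 1.14e-05). Ccl4, the near relative of Ccl3, rose by 0.56 ± 0.12 (adjusted p = 0.00471). The receptor Ccr1 had 7.90, 7.31 and 7.39 in wild type smoke, against 6.73, 5.85 and 6.46 in wild type air, a rise of 1.18 ± 0.26 (adjusted p = 0.00382). Ccl5, in the same row of genes as Ccl3, Ccl4, Ccl6 and Ccl9 on chromosome 11, went the other way. It fell by 0.66 ± 0.17 (adjusted p = 0.00961), with groups that overlapped, and the fall missed the threshold when only the 6 wild type arrays were fitted (adjusted p = 0.053).

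**Figure D2:**
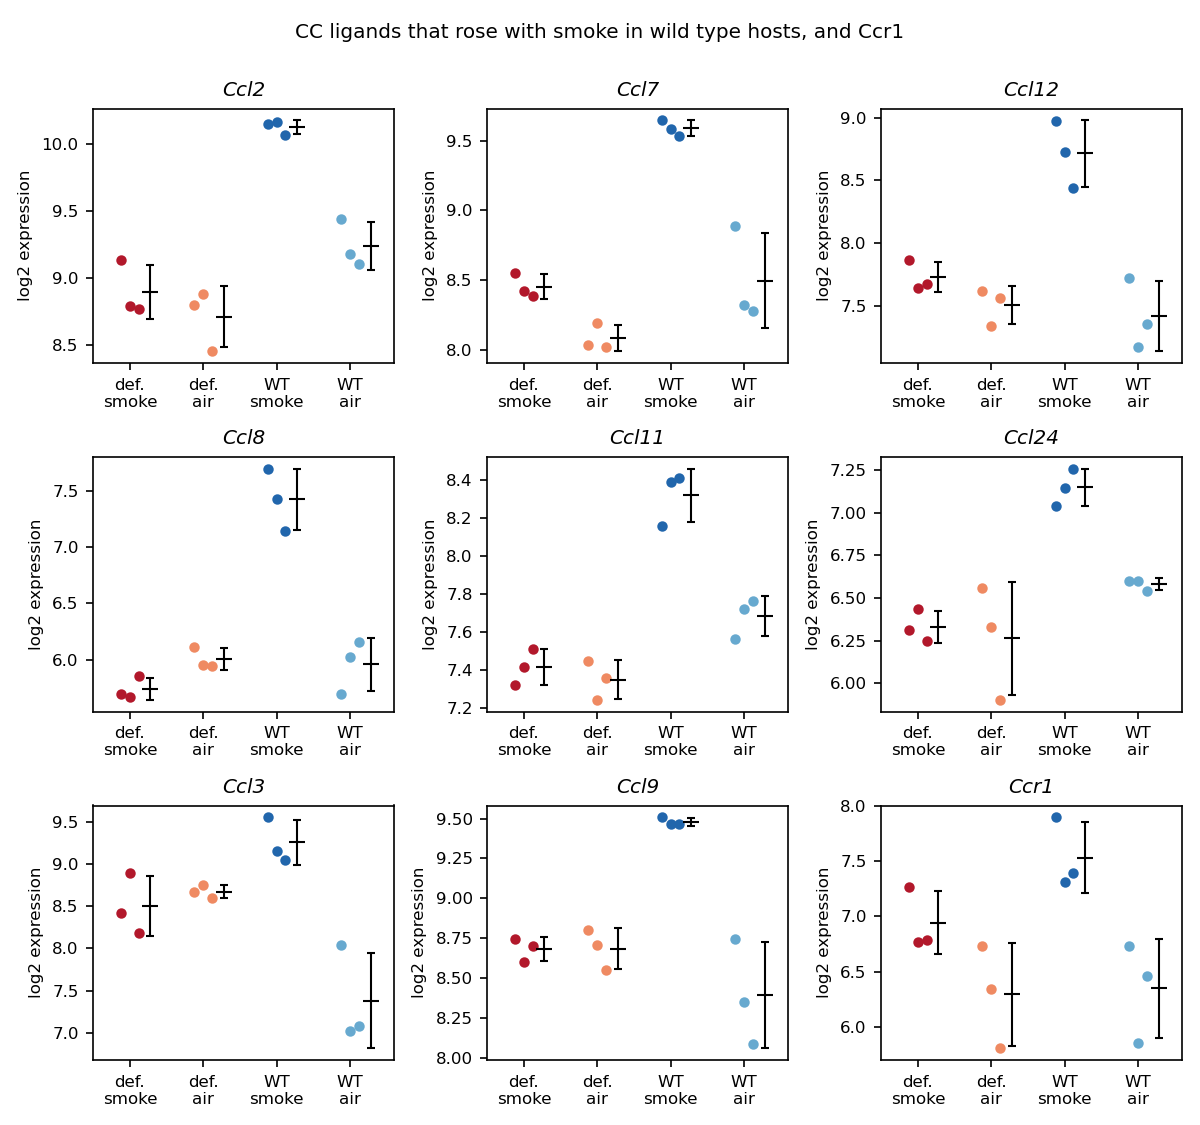
Log2 expression (vertical axes) of 8 CC ligands and the receptor Ccr1 on each array, by group (def., p65-deficient; WT, wild type), with points for arrays and bars for mean ± SD of 3. In every panel the 3 wild type smoke points lie above the 3 wild type air points, and the p65-deficient smoke points stay below them.

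The falls were led by Cxcl14, a ligand made by resting epithelia. Cxcl14 had 6.46, 7.12 and 6.71 in wild type smoke, against 8.70, 8.71 and 8.96 in wild type air. No smoke array came near the air arrays, and the fall was 2.03 ± 0.13, or 4.08-fold (adjusted p = 8.76e-08). Ackr2, an atypical receptor that scavenges inflammatory CC ligands, had 7.25, 7.21 and 7.17 in wild type smoke, against 7.86, 8.01 and 7.92 in wild type air, a fall of 0.72 ± 0.07 (adjusted p = 3.19e-06). Ackr4, which scavenges Ccl19 and Ccl25, fell by 0.28 ± 0.09 (adjusted p = 0.0291). Cxcr4, the receptor of Cxcl12, fell by 0.23 ± 0.06 (adjusted p = 0.0116) and Cxcr5, the receptor of Cxcl13, by 0.37 ± 0.12 (adjusted p = 0.0402). Ackr3, a scavenger of Cxcl12, rose by 0.35 ± 0.07 (adjusted p = 0.00269), while Ccr10 rose by 0.42 ± 0.14 (adjusted p = 0.0421). Ccr1l1, a neighbour of Ccr1, rose by 0.43 ± 0.13 (adjusted p = 0.0222) and Cxcl11, a ligand of Cxcr3, by 0.28 ± 0.09 (adjusted p = 0.0357).

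The calls of some of these small differences were lost when single libraries were left out or the processing was changed. Leaving out a p65-deficient array did not change the wild type differences themselves. Ackr4 was no longer called without wild type air array 2 or 3 or wild type smoke array 2 (adjusted p = 0.0833 to 0.0951), nor with median centring or only the 6 wild type arrays (0.0797 to 0.0846). Ccr1l1 was not called without wild type air array 3 or wild type smoke array 2 or 3 (adjusted p = 0.0796 to 0.104), nor with only the 6 wild type arrays (0.0841). Cxcl11 was lost without wild type air array 1 or 3 or wild type smoke array 2 or 3 (adjusted p = 0.0773 to 0.151), and with the replicate block, the intensity trend or only the 6 wild type arrays (0.0517 to 0.126). Cxcr5 was lost without any wild type air array, wild type smoke array 1, p65-deficient air array 2 or p65-deficient smoke array 3 (adjusted p = 0.0538 to 0.145), and with median centring (0.0588) or only the 6 wild type arrays (0.119). Ccr10 was lost without wild type air array 1 or 3, wild type smoke array 2 or 3, any p65-deficient air array or p65-deficient smoke array 2 (adjusted p = 0.0511 to 0.19), and with the replicate block (0.054) or only the 6 wild type arrays (0.115). Cxcr4 was lost with median centring and with only the 6 wild type arrays (adjusted p = 0.0609 to 0.0762).

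The first wild type air array was the highest of its group for several genes. Ccl3 had 8.04 there, against 7.03 and 7.09 on the others, and its rise with smoke stayed called without that array. Cxcl10 had 8.98 there, against 6.63 and 6.39 on the other wild type air arrays, Cxcl9 7.51 against 6.53 and 5.73, and Ccr2 8.66 against 7.65 and 7.88. With all arrays, wild type smoke was 0.84 ± 0.49 above wild type air for Cxcl10 (adjusted p = 0.204), 0.50 ± 0.36 for Cxcl9 (adjusted p = 0.299) and 0.32 ± 0.20 for Ccr2 (adjusted p = 0.229). Without that array the differences were 1.66 for Cxcl10 (adjusted p = 2.9e-05), 0.96 for Cxcl9 (adjusted p = 0.0339) and 0.62 for Ccr2 (adjusted p = 0.00337). Cxcl17, a mucosal ligand, was 0.44 ± 0.20 lower (adjusted p = 0.112), and 0.69 lower without the third wild type smoke array (adjusted p = 0.00894). In each case the array was singled out by its values for these same genes. The larger differences follow from that choice, and the adjusted p-values without the array carry it too.

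Markers of other cells moved with these genes. Of 12 measured macrophage and monocyte markers, 10 rose and 1 fell, and their mean level was 9.91 to 10.07 in wild type smoke and 9.13 to 9.30 in wild type air. All 12 alveolar epithelium markers and all 11 blood endothelium markers fell, as did 7 of 8 airway epithelium markers (median -3.40) and 4 of 9 B and plasma cell markers (median -0.33). Of 14 T and natural killer cell markers, 5 fell and 0 rose (median -0.19). Their mean level was 6.00 to 6.28 in wild type smoke and 6.46 to 6.66 in wild type air. Of 10 neutrophil markers 6 rose (median 0.40), and 2 of the 10, Ly6g and Ngp, lay below a log2 level of 6 on every array. So did Klrk1 of the T and natural killer cell list, but no marker of the other lists in this paragraph. The part of these lists in the results was not tested.

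In hosts labelled p65-deficient, few of the genes differed between smoke and air. Of the 45, 3 were called, against 2.41% of all genes. They were 2 that rose and 1 that fell, against 0.692% of all genes called higher and 1.72% called lower. The groups did not overlap for 16 of 45, against 22.7% of all genes, and the median difference was 0.05 over the 45 and -0.003 over all genes.

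The risers were Ccl17 and Ccl22, neighbours on chromosome 8 that both attract T cells through Ccr4 and are made by dendritic cells and macrophages. Ccl17 had 7.83, 7.99 and 7.80 in p65-deficient smoke, against 7.27, 7.26 and 7.24 in p65-deficient air. The air arrays lay within a narrow band, and the rise was 0.61 ± 0.09, or 1.53-fold (adjusted p = 0.00143). Ccl22 had 6.81, 7.08 and 6.92 in p65-deficient smoke, against 6.50, 6.59 and 6.43 in p65-deficient air, a rise of 0.43 ± 0.09 (adjusted p = 0.0171). Of 9 dendritic cell markers, 2 fell in the same comparison, and their part was not tested. Ccr4 itself was dim, and its difference was 0.04 ± 0.12 (adjusted p = 0.997).

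Ccl5, made by activated T cells and natural killer cells among others, had 10.34, 10.55 and 10.23 in p65-deficient smoke, against 11.12, 11.19 and 11.16 in p65-deficient air. It fell by 0.79 ± 0.17 (adjusted p = 0.0232) with no overlap. Of 14 T and natural killer cell markers, 7 fell, with mean levels of 7.49 to 7.62 in p65-deficient smoke and 8.02 to 8.05 in p65-deficient air, and their part in the fall of Ccl5 was not tested. Leaving out single libraries ended 2 of the 3 calls. Ccl22 missed the threshold without p65-deficient air array 1 or 3 or without p65-deficient smoke array 2 or 3 (adjusted p = 0.0678 to 0.0978). Ccl5 did so without any p65-deficient air array or without p65-deficient smoke array 1 or 3 (adjusted p = 0.082 to 0.123), and the rise of Ccl17 was called in each alternative run.

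The difference between the smoke effects was tested as an interaction, the smoke effect in p65-deficient hosts minus that in wild type hosts. It was called for 16 of the 45 genes, against 14.6% of all genes. It was positive for 6 and negative for 10, against 8.89% and 5.70% of all genes. The median was -0.23 over the 45 and -0.08 over all genes. All 4 monocyte chemoattractant ligands and 3 of 5 macrophage inflammatory ligands had negative interactions past the test. Of 12 macrophage and monocyte markers, 8 had a negative interaction past the test, while all 12 alveolar epithelium markers, all 11 blood endothelium markers and 7 of 8 airway epithelium markers had a positive one. Their part was not tested.

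Ccl3 had the largest negative one, -2.04 ± 0.34 (adjusted p = 0.000878). Its levels were 8.43, 8.89 and 8.19 in p65-deficient smoke, against 8.66, 8.75 and 8.60 in p65-deficient air. These overlapped, and the difference was -0.17 ± 0.24 (adjusted p = 0.967). Ccl8 had an interaction of -1.73 ± 0.19 (adjusted p = 2.52e-05). It had 5.70, 5.67 and 5.85 in p65-deficient smoke, against 6.11, 5.95 and 5.94 in p65-deficient air, so it stayed dim in both. Ccl9 followed at -1.09 ± 0.18 (adjusted p = 0.000919), Ccl12 at -1.08 ± 0.21 (adjusted p = 0.00297), Ccl7 at -0.72 ± 0.18 (adjusted p = 0.0172) and Ccl2 at -0.70 ± 0.18 (adjusted p = 0.0172). The Ccl2 call was lost without p65-deficient air array 1 or 2 or p65-deficient smoke array 2 (adjusted p = 0.0503 to 0.0518). Ccl6 (-0.62 ± 0.13) and Ccl11 (-0.57 ± 0.13) were also called.

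On the positive side, Cxcl14 led with 2.12 ± 0.19 (adjusted p = 3.51e-06). It had 9.98, 10.16 and 10.00 in p65-deficient smoke, against 10.02, 9.97 and 9.87 in p65-deficient air, and these overlapped. Ackr2 followed with 0.79 ± 0.10 (adjusted p = 5.91e-05), then Ccl17 with 0.75 ± 0.12 (adjusted p = 0.000739), Ccl22 with 0.58 ± 0.12 (adjusted p = 0.00469), Ackr4 with 0.57 ± 0.12 (adjusted p = 0.00566) and Cxcr4 with 0.35 ± 0.09 (adjusted p = 0.0128). The interaction of Ccl5 was -0.12 ± 0.23 (adjusted p = 0.76), so a difference between its falls was not detected. The interaction of Ccr1 was -0.54 ± 0.36 (adjusted p = 0.363), so a difference between the genotypes was not detected for it. Without the first wild type air array, the interactions of Cxcl10 (-1.49, adjusted p = 0.00112) and Ccr2 (-0.94, adjusted p = 0.00227) passed the threshold, which they missed with all arrays at -0.66 (adjusted p = 0.559) and -0.64 (adjusted p = 0.164). That array was singled out by its values for these genes, so the larger interactions follow from the choice.

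**Figure D3:**
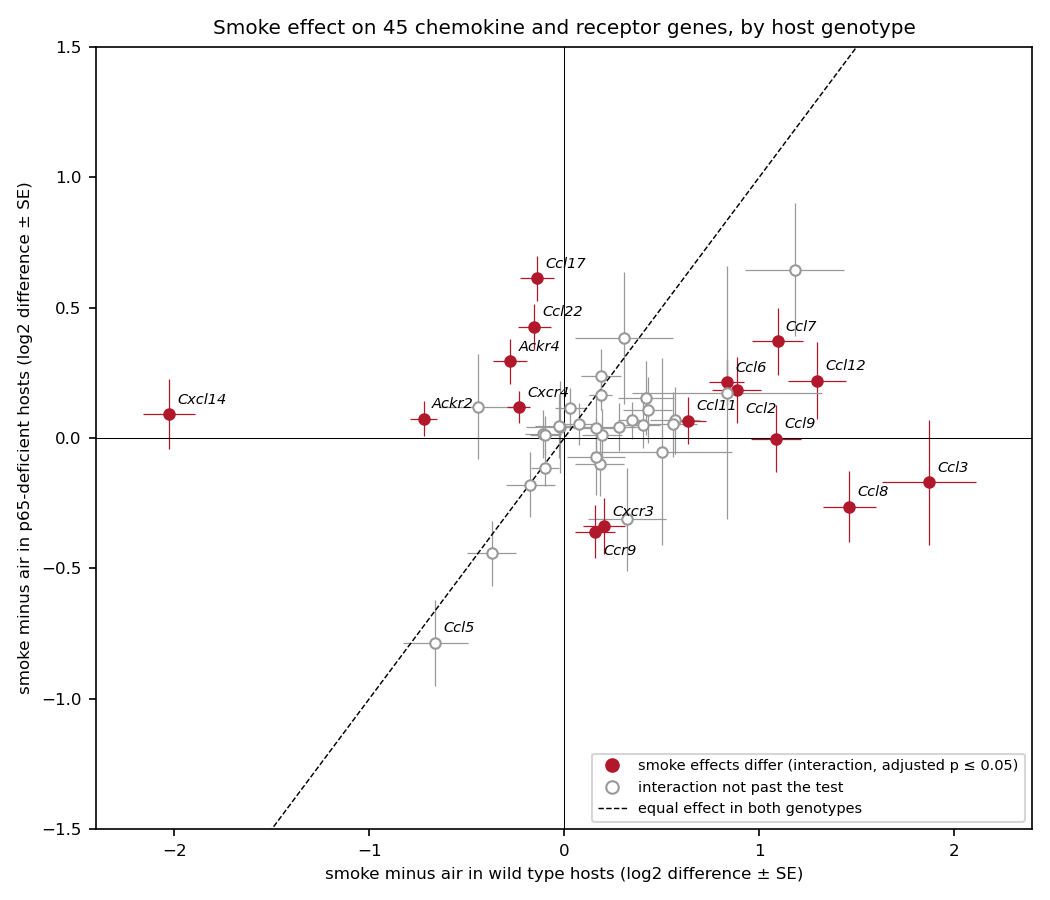
Smoke minus air in p65-deficient hosts (vertical axis) against smoke minus air in wild type hosts (horizontal axis), as log2 differences ± SE, with a point for each of the 45 genes. The 16 filled points, called in the interaction, include Ccl3, Ccl8 and Ccl9 far right and near 0 in height, Cxcl14 far left, and Ccl17 and Ccl22 above the horizontal axis.

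In air, hosts labelled p65-deficient had higher CXC ligands and receptors than wild type hosts. Of the 45 genes, 27 were called, against 38.5% of all genes. They were 23 higher and 4 lower, against 20.5% of all genes called higher and 18.0% called lower. The groups did not overlap for 29 of 45, against 51.9% of all genes, and the median difference was 0.26 over the 45 and -0.03 over all genes. All 3 interferon-induced CXC ligands, all 5 homeostatic CXC ligands and all 4 CXC receptors were called higher. Of these, Cxcl11 and Cxcr5 were dim, and the calls of Cxcl11 and Cxcl17 were lost under some alternatives. Among the 18 receptors, 11 were higher.

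Under smoke the same contrast called 33 of 45, against 59.6% of all genes. They were 19 higher and 14 lower, against 22.7% and 37.0% of all genes. The groups did not overlap for 34 of 45, against 61.3% of all genes, and the median difference was 0.07 over the 45 and -0.14 over all genes. The 5 homeostatic CXC ligands and the 4 CXC receptors were again all called higher, Cxcr3 not with quantile normalization. All 4 monocyte chemoattractant ligands and all 3 eosinophil-attracting ligands were called lower, though the call of the dim Ccl26 was lost under 6 alternatives. The air and smoke contrasts use different arrays: 16 genes were higher in both, 4 lower in both, and 1, Ccl3, was higher in air and lower under smoke. Over all genes these shares were 17.4%, 15.7% and 0.306%, against 35.6%, 8.89% and 2.22% of the 45. Median centring moved the median of all genes under smoke by a further -0.143. Relative to the median of all genes as deposited, the difference under smoke was 3.42 for Cxcl14, 2.56 for Ccl5 and -1.55 for Ccl8.

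Cxcl9 and Cxcl10 are induced by interferon gamma and call in T cells and natural killer cells through Cxcr3. Cxcl9 had 8.90, 9.30 and 8.15 in p65-deficient smoke, against 7.36, 7.11 and 6.81 in wild type smoke, a difference of 1.69 ± 0.36 (adjusted p = 0.00135). In air it had 8.84, 8.75 and 8.91 in p65-deficient hosts, against 7.51, 6.53 and 5.73 in wild type hosts, 2.24 ± 0.36 higher (adjusted p = 0.000215). The p65-deficient arrays were above every wild type array, and the wild type air arrays spread widely. Cxcl10 had 9.73, 10.40 and 9.72 in p65-deficient smoke, against 8.30, 8.24 and 7.97 in wild type smoke, 1.78 ± 0.49 higher (adjusted p = 0.00721). In air it had 9.73, 9.71 and 9.88 in p65-deficient hosts, against 8.98, 6.63 and 6.39 in wild type hosts. That difference was 2.44 ± 0.49 (adjusted p = 0.00118), and 3.27 without the first wild type air array. Cxcl11, in which C57BL/6 mice carry a frameshift, was dim and differed by 0.26 ± 0.09 in air (adjusted p = 0.0377) and 0.02 ± 0.09 under smoke (adjusted p = 0.833). The receptor Cxcr3 was higher under smoke by 0.38 ± 0.11 (adjusted p = 0.00925) and in air by 0.92 ± 0.11 (adjusted p = 1.57e-05), the smoke call being lost with quantile normalization (0.25, adjusted p = 0.0563). Its interaction, -0.54 ± 0.15 (adjusted p = 0.0299), was lost without wild type air array 2 or 3, wild type smoke array 3, p65-deficient air array 1 or 3 or p65-deficient smoke array 1 or 2 (adjusted p = 0.0579 to 0.0756).

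The promoters of Cxcl9, Cxcl10 and Cxcl14, the CXC ligands with the largest genotype differences, are shown for the motifs given above. They cover chr5:92328080-92328329, chr5:92348890-92349139 and chr13:56296552-56296801 of GRCm38.p6 from RefSeq, all on the minus strand and read 5′ to 3′ toward the gene start, with capitals marking the matches.
Cxcl9: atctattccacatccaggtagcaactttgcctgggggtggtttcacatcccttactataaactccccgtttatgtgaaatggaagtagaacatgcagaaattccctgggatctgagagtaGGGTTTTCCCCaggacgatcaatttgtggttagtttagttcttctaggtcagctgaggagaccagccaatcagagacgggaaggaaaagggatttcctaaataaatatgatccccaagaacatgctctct
Cxcl10: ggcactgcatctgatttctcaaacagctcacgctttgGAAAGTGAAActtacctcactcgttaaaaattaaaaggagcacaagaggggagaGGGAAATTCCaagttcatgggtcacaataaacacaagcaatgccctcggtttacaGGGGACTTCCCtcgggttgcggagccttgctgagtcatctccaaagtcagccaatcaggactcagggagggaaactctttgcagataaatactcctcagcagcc
Cxcl14: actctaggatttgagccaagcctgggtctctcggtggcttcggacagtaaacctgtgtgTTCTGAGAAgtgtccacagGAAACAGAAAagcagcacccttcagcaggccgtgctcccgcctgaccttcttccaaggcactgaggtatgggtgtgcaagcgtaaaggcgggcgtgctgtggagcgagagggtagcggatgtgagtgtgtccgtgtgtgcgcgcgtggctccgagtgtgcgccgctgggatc
In Cxcl9 the capitals are 2 overlapping kappa B matches, between bases -130 and -120 from the gene start. In Cxcl10 they are an ISRE match at -213 to -204, a kappa B match at -159 to -150 and 2 overlapping kappa B matches between -104 and -94. In Cxcl14 they are a GAS match at -191 to -183 and an ISRE match at -172 to -163. RefSeq promoters matched 32 of the 45 genes. The kappa B letters were in 18 of the 32 and in 45.8% of 32851 mouse promoters of the same length, so a match to them is common. The GAS letters were in 4 of the 32 (Ccl17, Ccr1l1, Ccr6 and Cxcl14) and in 7.02% of all promoters, and the ISRE letters in 3 of the 32 (Ccl19, Cxcl10 and Cxcl14) and in 2.98% of all.

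Ccl5 had the largest difference in air. It had 11.12, 11.19 and 11.16 in p65-deficient air, against 8.85, 8.40 and 8.59 in wild type air, 2.55 ± 0.17 or 5.84-fold higher (adjusted p = 1.55e-07). Under smoke it had 10.34, 10.55 and 10.23 in p65-deficient hosts, against 8.41, 7.70 and 7.75 in wild type hosts, 2.42 ± 0.17 higher (adjusted p = 4.19e-08). It was the one gene of the 45 called in all 4 pairwise comparisons, and the share of all genes called in all 4 was not counted. Ccl6 was higher under smoke by 0.48 ± 0.09 (adjusted p = 0.000525) and in air by 1.10 ± 0.09 (adjusted p = 7.68e-07).

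Cxcl14 had the largest difference under smoke, 3.28 ± 0.13 or 9.75-fold (adjusted p = 2.06e-10), from the array values already given, with the 3 p65-deficient arrays all at or above 9.98 and the wild type arrays all at or below 7.12. In air it was 1.17 ± 0.13 higher (adjusted p = 1.38e-05). Ackr2 had 8.84, 8.98 and 8.98 in p65-deficient smoke, against 7.25, 7.21 and 7.17 in wild type smoke, 1.72 ± 0.07 higher (adjusted p = 1.4e-10). In air the scavenger was 0.93 ± 0.07 higher (adjusted p = 3.36e-07).

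Cxcl12, the stromal ligand that holds leukocytes and progenitors in tissue, and its receptor Cxcr4 were both higher. Cxcl12 had 9.36, 9.49 and 9.35 in p65-deficient smoke, against 8.59, 8.41 and 8.48 in wild type smoke, 0.91 ± 0.07 higher (adjusted p = 2.24e-07), and was 0.80 ± 0.07 higher in air (adjusted p = 1.91e-06). Cxcr4 had 11.38, 11.45 and 11.54 in p65-deficient smoke, against 10.17, 10.24 and 10.22 in wild type smoke, 1.24 ± 0.06 higher (adjusted p = 1.24e-09), and was 0.89 ± 0.06 higher in air (adjusted p = 2.05e-07). The spread within each group was far below these differences. Cxcl16, a membrane-bound ligand of Cxcr6, was higher under smoke by 1.18 ± 0.12 (adjusted p = 3e-06) and in air by 1.10 ± 0.12 (adjusted p = 1.07e-05). Cxcr6, found on T cells and natural killer T cells, was higher by 0.92 ± 0.13 in both settings (adjusted p = 3.33e-05 under smoke and 5.23e-05 in air). Cxcl13, which draws B cells through Cxcr5, was higher under smoke by 0.96 ± 0.18 (adjusted p = 0.000442) and in air by 0.89 ± 0.18 (adjusted p = 0.00108). Cxcr5 was dim and higher under smoke by 0.60 ± 0.12 (adjusted p = 0.00121) and in air by 0.67 ± 0.12 (adjusted p = 0.000742). Cxcl17 was 1.21 ± 0.20 higher under smoke (adjusted p = 0.000186) and 0.65 ± 0.20 higher in air (adjusted p = 0.0199), the air call being lost without wild type air array 1 or p65-deficient air array 1 or 2 (adjusted p = 0.0525 to 0.0698).

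**Figure D4:**
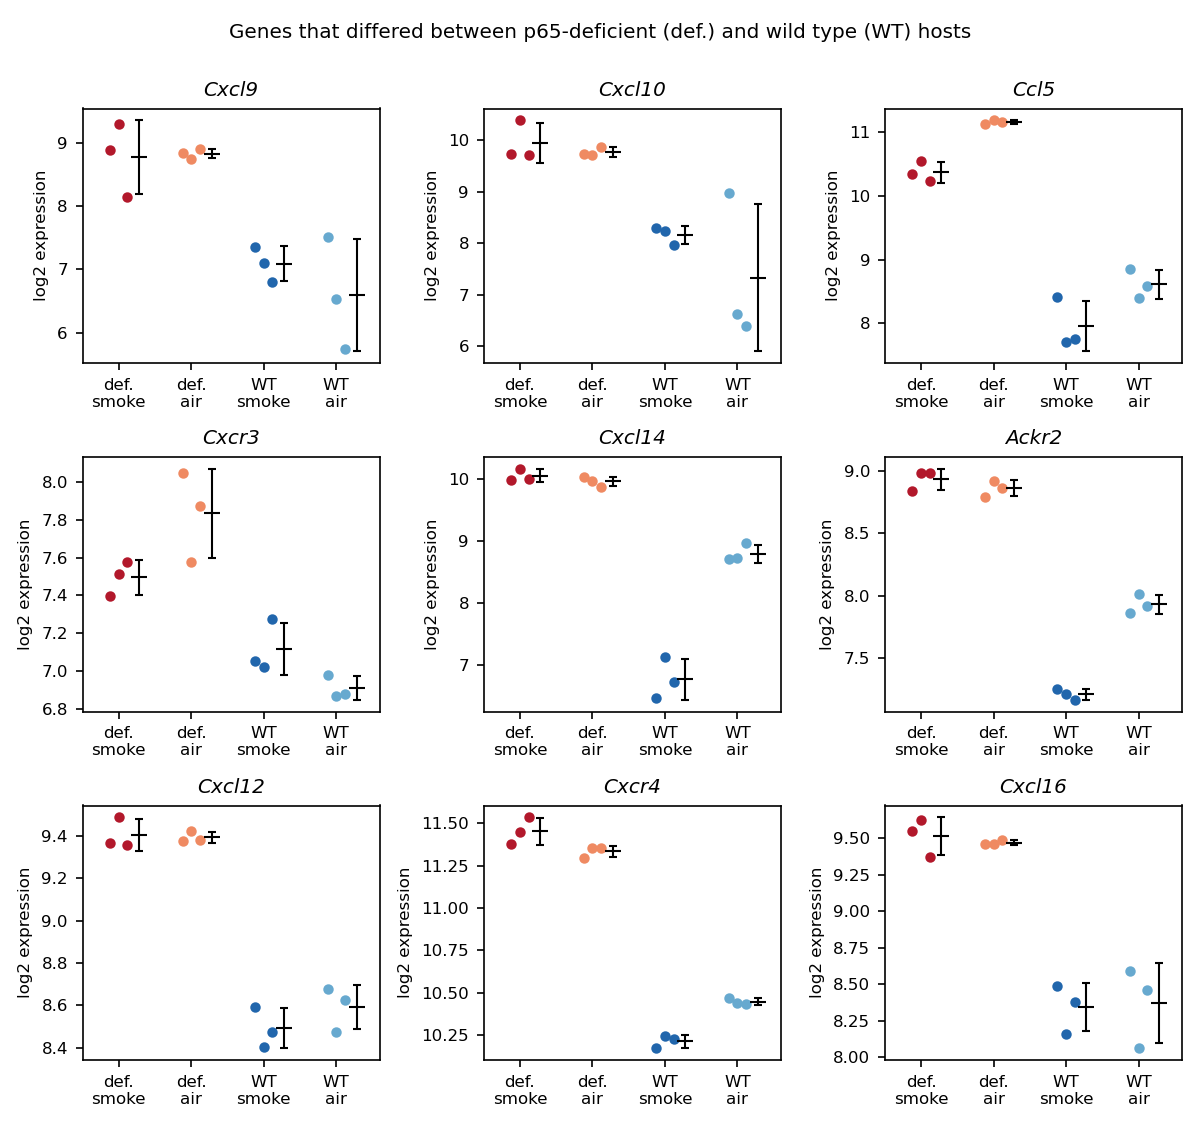
Log2 expression (vertical axes) of 9 genes on each array, by group (def., p65-deficient; WT, wild type), with points for arrays and bars for mean ± SD of 3. The p65-deficient points lie above the wild type points of the same exposure in each panel, and the first wild type air array is the highest of its group for Cxcl9 and Cxcl10.

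The CC receptors were split. Ccr2, the monocyte receptor, had 9.40, 9.34 and 9.40 in p65-deficient air, against 8.66, 7.65 and 7.88 in wild type air, 1.31 ± 0.20 higher (adjusted p = 0.000136). Under smoke it was 0.68 ± 0.20 higher (adjusted p = 0.0107), while its ligands Ccl2, Ccl7 and Ccl12 were lower there. Ccr7, which guides dendritic cells and T cells to lymph nodes, was higher by 0.64 ± 0.07 under smoke (adjusted p = 4.79e-06) and by 0.66 ± 0.07 in air (adjusted p = 7.44e-06). In air alone, Ccr9 (0.56 ± 0.10), Ccr6 (0.46 ± 0.15) and Ccr3 (0.42 ± 0.12) were called higher. The calls of Ccr6 and Ccr3 were lost without some single libraries: wild type air array 3 and p65-deficient air arrays 1 and 3 for both, and wild type air array 1 for Ccr6 (adjusted p = 0.053 to 0.123 for Ccr6 and 0.0541 to 0.0747 for Ccr3). Ccr1 differed by -0.59 ± 0.26 under smoke and missed the threshold (adjusted p = 0.0614), but passed it with median centring, for example, at -0.73 (adjusted p = 0.0166).

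Ccl8 had the largest deficit of the 45 under smoke, with a difference of -1.68 ± 0.13, or 3.21-fold lower in p65-deficient than in wild type hosts (adjusted p = 2.13e-07). Ccl2 had 9.13, 8.79 and 8.77 in p65-deficient smoke, against 10.15, 10.16 and 10.06 in wild type smoke. Those arrays were far apart, and the difference was -1.23 ± 0.13 (adjusted p = 2.4e-06). Ccl7 differed by -1.14 ± 0.13 (adjusted p = 6.8e-06), Ccl12 by -0.99 ± 0.15 (adjusted p = 8.18e-05) and Ccl11 by -0.90 ± 0.09 (adjusted p = 1.57e-06). With Ccl1 at -0.37 ± 0.09 (adjusted p = 0.00304), all 6 genes of that row on chromosome 11 were lower. In air, Ccl2 (-0.53 ± 0.13, adjusted p = 0.0042), Ccl7 (-0.41 ± 0.13, adjusted p = 0.0223) and Ccl11 (-0.33 ± 0.09, adjusted p = 0.00844) were lower, and the differences of Ccl8 (0.04 ± 0.13), Ccl12 (0.09 ± 0.15) and Ccl1 (-0.02 ± 0.09) missed the threshold. The air call of Ccl7 was lost without wild type air array 1 or p65-deficient air array 1 or 3 (adjusted p = 0.0594 to 0.0753). Ccl25, a ligand of Ccr9, was lower, by a difference of -0.60 ± 0.08 under smoke (adjusted p = 3.13e-05) and -0.58 ± 0.08 in air (adjusted p = 7.12e-05). Ccl24 differed by -0.82 ± 0.13 under smoke (adjusted p = 0.000121) and Ccl28, a mucosal ligand of Ccr10, by -0.41 ± 0.10 (adjusted p = 0.00421).

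Ccl3 was 1.29 ± 0.24 higher in p65-deficient than in wild type air (adjusted p = 0.000707) and lower under smoke, by a difference of -0.75 ± 0.24 (adjusted p = 0.0165), with no overlap in either. The call under smoke was lost without wild type smoke array 1 (-0.60, adjusted p = 0.0504) or p65-deficient smoke array 3 (-0.60, adjusted p = 0.0706). Ccl9 was lower under smoke, by a difference of -0.80 ± 0.13 (adjusted p = 0.000152). Ccl17 was 0.96 ± 0.09 higher under smoke (adjusted p = 6.39e-07) and Ccl22 0.74 ± 0.09 higher (adjusted p = 6.85e-06), while in air their differences were 0.21 ± 0.09 (adjusted p = 0.0715) and 0.16 ± 0.09 (adjusted p = 0.162). Ackr4 was 0.60 ± 0.09 higher under smoke (adjusted p = 5.88e-05).

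The remaining calls were of small differences and were lost when single libraries were left out or the processing was changed. Leaving out a smoke array did not change the air differences themselves. In air, Ackr3 was 0.24 ± 0.07 higher (adjusted p = 0.0172), and the call was lost without wild type air array 1 or 2 or p65-deficient air array 2 or 3 (adjusted p = 0.0589 to 0.0631), or with median centring or quantile normalization (0.13 to 0.149). Ccl4 was 0.33 ± 0.12 higher in air (adjusted p = 0.0483) and was lost without any 1 of the 6 air arrays, wild type smoke array 3 or p65-deficient smoke array 1 (adjusted p = 0.05 to 0.181), or with the replicate block, the intensity trend or median centring (0.0503 to 0.0908). The air call of Cxcl11 was lost without wild type air array 1 or 3, any p65-deficient air array or p65-deficient smoke array 2 or 3 (adjusted p = 0.051 to 0.146), or with the same 3 settings (0.0572 to 0.083). Under smoke, Ccr10 (-0.40 ± 0.14) and Ccr1l1 (-0.34 ± 0.13) were called lower, and both were lost without wild type smoke array 2 or 3 or p65-deficient smoke array 1 or 2 (adjusted p = 0.0586 to 0.109 for Ccr10 and 0.0949 to 0.115 for Ccr1l1). Quantile normalization also ended the call of Ccr1l1 (adjusted p = 0.0954). Ccl26 differed by -0.17 ± 0.06 and was lost without wild type smoke array 2 or p65-deficient smoke array 1 or 2 (adjusted p = 0.0778 to 0.0875). It was also lost with the intensity trend (adjusted p = 0.0724), with only the 6 smoke arrays (0.0856) and with quantile normalization, where the difference was -0.04 (0.597).

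**Figure D5:**
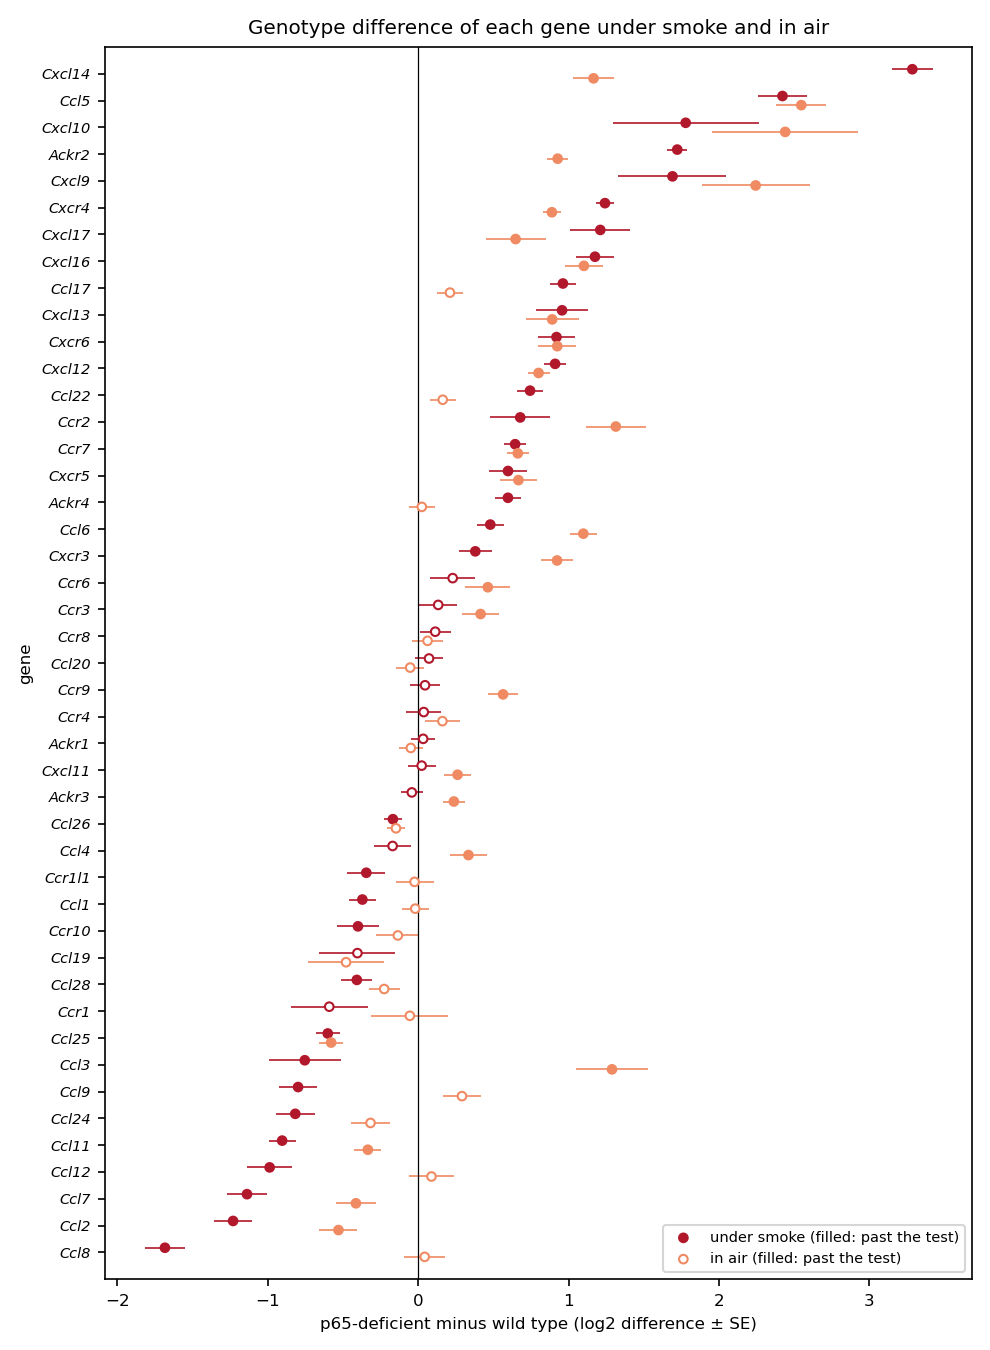
Difference of p65-deficient minus wild type (horizontal axis, log2 ± SE) for each of the 45 genes (rows), under smoke and in air, with filled points for genes past the test. Cxcl14, Ccl5, Cxcl10 and Ackr2 head the plot, Ccl8, Ccl2 and Ccl7 end it, and Ccl3 has its air point right of 0 and its smoke point left of 0.

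Cell markers differed between the genotypes too. All 14 T and natural killer cell markers were higher in p65-deficient hosts under smoke (median 1.29) and in air (median 1.43), though 1 of them, Klrk1, lay below a log2 level of 6 on every array. All 12 alveolar epithelium markers were higher under smoke (median 2.88) and in air (median 0.85), and all 11 blood endothelium markers under smoke (median 1.89) and in air (median 0.98). Airway epithelium markers were higher for 8 of 8 under smoke (median 4.72) and 6 of 8 in air (median 0.76), and B and plasma cell markers for 7 of 9 under smoke (median 0.85) and 8 of 9 in air (median 0.71). Macrophage and monocyte markers were 2 higher and 7 lower of 12 under smoke (median -0.57), and 10 higher in air (median 0.51). Some other lists were mixed too. Fibroblast markers were 5 higher and 5 lower of 10 under smoke, and 5 higher and 4 lower in air. Neutrophil markers were 5 higher and 3 lower of 10 under smoke, and 6 higher in air. Dendritic cell markers were 4 higher and 1 lower of 9 under smoke, and 5 higher in air. Of 14 interferon axis genes, 12 were higher in both settings, with mean levels of 9.25 to 9.49 in p65-deficient smoke, 9.83 to 9.84 in p65-deficient air, 8.14 to 8.29 in wild type smoke and 8.24 to 8.69 in wild type air. Irf1, a factor that interferon induces, was 0.82 ± 0.10 higher under smoke and 1.24 ± 0.10 higher in air, while Ifng itself, dim on every array, was called in no comparison. The part of these lists in the chemokine differences was not tested.

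There were 5 genes called in no pairwise comparison: Ackr1, an atypical receptor of venules, Ccl19, a ligand of Ccr7, Ccl20, a ligand of Ccr6, and Ccr4 and Ccr8, chemokine receptors of T cells. The share of all genes called in none was not counted. Ccl19 was bright on its chosen probe set, with 9.96, 9.51 and 10.01 in p65-deficient smoke, 8.95, 9.65 and 9.73 in p65-deficient air, 10.17, 10.46 and 10.04 in wild type smoke and 10.04, 10.38 and 9.34 in wild type air. Its 4 probe sets disagreed, with p65-deficient air below wild type air on 2 and above it on 2, so no direction is given for it.

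Related genes outside the symbol rule moved as follows. Of 8 other chemokine ligands and receptors, 4 rose and 3 fell with smoke in wild type hosts, and 2 fell with smoke in p65-deficient hosts. Between p65-deficient and wild type hosts, 4 were higher and 2 lower under smoke, and 6 higher and 1 lower in air. Pf4, a platelet and macrophage ligand, was lower in p65-deficient than in wild type smoke, by a difference of -2.05 ± 0.19 (adjusted p = 7.9e-07), and rose with smoke by 1.30 ± 0.19 in wild type hosts (adjusted p = 0.000167). Ccrl2, a receptor that binds chemerin, was 2.33 ± 0.08 higher in p65-deficient smoke than in wild type smoke (adjusted p = 5.49e-11), and Cmklr1, the signalling receptor of chemerin, 2.01 ± 0.07 higher (adjusted p = 4.73e-11). Both fell by 1.28 with smoke in wild type hosts. Of 22 measured genes of receptor signalling, 11 were higher and 5 lower under smoke between the genotypes, and 14 higher in air. Of 7 measured genes of NF-kB subunits and their regulators, 3 were higher under smoke and 3 in air, and 2 of them, Rela and Rel, in both. Between the genotypes, 22.7% of all genes were called higher and 37.0% lower under smoke. In air these shares were 20.5% and 18.0%. Dpp4, a protease that trims several chemokines, was 3.65 ± 0.08 higher in p65-deficient than in wild type smoke (adjusted p = 5.36e-13) and fell by 2.78 ± 0.08 with smoke in wild type hosts (adjusted p = 1.99e-11).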

How the data were processed

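Tumour RNA was hybridised to Affymetrix whole-transcript arrays. Per the submitters' processing notes, the authors used Affymetrix Expression Console and RMA, and the deposited values are log2 expression per probe set, already normalized across arrays. Versions are not given in the sources used here. Of 34760 probe sets, 21640 carried 1 gene symbol in the platform annotation, 1321 several and 11799 were not listed, and the single-symbol sets gave 19937 genes.

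From the deposited log2 values, limma 3.58.1 (R 4.3.3; lmFit and eBayes) fitted 1 mean per group over all 12 arrays (8 residual degrees of freedom), without a covariate, and tested 5 contrasts two-sided with Benjamini-Hochberg adjustment over all 19937 genes. Fold changes are powers of 2 of the difference. The script was tested on simulated data. The number of arrays limits the precision. Any member of the set may be named, array values going first to called members with separate groups, and genes outside it come from pathway lists. The members and lists were chosen with earlier results of these data known. Alternatives were a filter on dim genes (log2 of 6 on 3 arrays), the mean of probe sets, median centring, quantile normalization, an intensity trend, the replicate number as a block, only the 6 arrays compared, and leaving out each array. Promoters come from RefSeq (GRCm38.p6).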

Additional observations from a re-analysis of the deposited data

Results flagged for a closer look

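By the interaction test over all genes with limma, the smoke effect differed between the host genotypes for 16 of the 45 genes. It was positive for 6 and negative for 10. Of all genes 14.6% were called, 8.89% positive and 5.70% negative. Each value is the log2 smoke effect in hosts labelled p65-deficient minus that in wild type hosts, with its adjusted p and n = 3 arrays in each of 4 groups. Among the CC ligands with a smaller smoke effect in p65-deficient hosts, Ccl3 stood at -2.042 (0.000878), Ccl8 at -1.726 (2.52e-05), Ccl9 at -1.09 (0.000919) and Ccl12 at -1.076 (0.00297). Ccl7 stood at -0.724 (0.0172), Ccl2 at -0.7004 (0.0172), Ccl6 at -0.6185 (0.00434) and Ccl11 at -0.5698 (0.00703). The receptors Cxcr3, at -0.5435 (0.0299), and Ccr9, at -0.5187 (0.0273), were negative too. Positive values were found for Cxcl14 at 2.119 (3.51e-06), Ackr2 at 0.7948 (5.91e-05), Ccl17 at 0.7507 (0.000739), Ccl22 at 0.5803 (0.00469), Ackr4 at 0.5723 (0.00566) and Cxcr4 at 0.3528 (0.0128). The call of Ccr9 was lost without wild type air array 1 or 3, wild type smoke array 2 or 3, p65-deficient air array 1 or 3 or p65-deficient smoke array 1 or 2 (adjusted p = 0.0517 to 0.079), and that of Cxcr3 in the cases given in the results (0.0579 to 0.0756). Of the cell markers, 8 of 12 for macrophages and monocytes had a negative interaction past the test and 1 a positive one, and all 12 for alveolar epithelium and all 11 for blood endothelium had a positive one. Their part was not tested.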

How the results depend on the processing

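No result for a gene of the set changed direction past the test under an alternative. Of the single-gene results recomputed, 3989 kept their side of the threshold, 61 newly passed it and 130 newly missed it. Calls held under every alternative that gave a value for 15 of 23 genes (smoke in wild type), 1 of 3 (smoke in p65-deficient), 20 of 27 (genotype in air), 28 of 33 (genotype under smoke) and 13 of 16 (interaction). The filter on dim genes gives no value for 10 genes.

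Fitting only the 6 arrays compared moved the smoke count to 7 in p65-deficient hosts and 15 in wild type hosts, against 3 and 23 with all 12 arrays. Leaving out 1 array gave 1 to 5 calls for smoke in p65-deficient hosts: 5 without wild type smoke replicate 1, and 1 without p65-deficient air replicate 1 or 3 or p65-deficient smoke replicate 3. The ranges were 17 to 24 for smoke in wild type, 21 to 29 for genotype in air, 30 to 34 for genotype under smoke and 13 to 18 for the interaction. Median centring gave 21 higher and 3 lower genes for smoke in wild type, against 17 and 6, and 20 higher and 7 lower for genotype in air, against 23 and 4. Quantile normalization gave 2 higher and 2 lower for smoke in p65-deficient hosts, against 2 and 1. Over all genes, the calls numbered 481 for smoke in p65-deficient hosts (261 to 1018 under the alternatives), 5778 for smoke in wild type hosts (3454 to 9852) and 2909 for the interaction (2239 to 4969). In the genotype contrast under smoke, median centring gave a median of all genes of -0.28, against -0.137.

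Groups share replicate numbers in the labels. Deviations of same-numbered arrays from their group means correlated at -0.363 to 0.365 over 18 pairs. With 3 arrays in each group, these mixed values do not settle whether the numbers pair the samples. With the number as a replicate block, the counts were 3 and 21 for smoke (p65-deficient and wild type), 34 and 25 for genotype (smoke and air) and 16 for the interaction. The smoke calls of Ccr10 and Cxcl11 in wild type hosts and the air calls of Ccl4 and Cxcl11 were among those lost with the block; the cause was not tested.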
